A study of Mus musculus with 9 samples.

Results

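The kidney moves water through aquaporins, and the antidiuretic hormone vasopressin sets how much of it the collecting duct takes back. Expression of 7 aquaporin genes (Aqp1, Aqp2, Aqp3, Aqp4, Aqp6, Aqp7 and Aqp11) and of Avpr2, the vasopressin V2 receptor gene, was examined in RNA-seq data of the mouse renal cortex. The genes were taken by their official symbol, and all 8 were found once each among the 21950 mRNA genes of the data. All 8 also passed the filter on low values, which left 14537 genes for testing.

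Renal cortices came from 3 groups of male C57BL/KsJ mice at 15 weeks of age, with 3 mice and 1 library per mouse in each group. The study asked how gene expression in diabetic kidneys differs from normal and what rosiglitazone, a thiazolidinedione drug that activates PPARγ, does to it. The db mutation lies in the leptin receptor gene Lepr. Control mice were nondiabetic db/m littermates, heterozygous for db. Mice of the dbdb group were homozygous for db, had type 2 diabetes and received vehicle by gavage for 8 weeks. Mice of the dbR group had the same genotype and received rosiglitazone by gavage at 20 mg/kg/day for the same 8 weeks, from 7 to 15 weeks of age. Whether the control mice received vehicle is not given in the sources used here. The db/db mouse lacks leptin receptor signaling in the whole body from birth, so obesity, high glucose and the lost signaling come together in this model and cannot be told apart. All 3 groups are of 1 sex and 1 strain.

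Vasopressin binds the V2 receptor on the basolateral side of principal cells of the collecting duct, which raises cyclic AMP and activates protein kinase A. Vesicles that carry AQP2 then fuse with the apical membrane, water enters the cell through AQP2 and leaves it through AQP3 and AQP4 on the basolateral side, and longer stimulation also raises transcription of Aqp2. AQP6 sits in intracellular vesicles of acid-secreting intercalated cells. AQP1 carries the bulk water reabsorption of the proximal tubule and thin descending limb, AQP7 passes water and glycerol in the straight part of the proximal tubule, and AQP11 lies in the endoplasmic reticulum of proximal tubule cells. In the mouse, AQP4 is also found in the straight proximal tubule.

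Values are FPKM (fragments per kilobase of transcript, scaled to the mapped fragments of the library) as deposited, summed over the transcripts of each gene, so levels of different genes are compared per length. Estimated depth was between 26200000 and 32500000 fragments per library, and 26.9% to 32.8% of the mRNA FPKM was mitochondrial. The Pearson r of log2 values lay between 0.985 and 0.992 for libraries of 1 group and between 0.971 and 0.988 across groups. The lowest r within a group, between dbdb replicates 1 and 3, was below that of either with each dbR library. On 4 haemoglobin genes, control replicate 1 stood apart, with a summed 103 FPKM against 6.38 to 23.3 in the other libraries, and without it 5 of the 8 genes described here still passed against control in either db/db group. Lepr, which carries the mutation, was between 1.05 and 1.23 FPKM in the control libraries and between 0.304 and 0.652 in the db/db libraries. Summed FPKM of 10 proximal tubule marker genes was between 3003 and 3735 in the control and dbdb libraries, while Slc14a2, the urea transporter of the inner medulla and thin limb, was at most 0.119 in any library. Differences were tested with limma on log2(FPKM + 0.1) in 1 model of the 9 libraries, and a gene was called at a Benjamini-Hochberg adjusted p under 0.05 over the 14537 genes. A log2 fold change is on this scale, which understates the change of genes with low values. A difference in the cortex can come from fewer cells of a type or from less RNA per cell, which cannot be told apart in bulk tissue.

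Aqp2 and Aqp6 are neighbors on chromosome 15, and their promoters are shown because both genes were upregulated in the db/db groups. Aqp2 lies at chr15:99579055-99584547 and Aqp6 at chr15:99601400-99605477 (GRCm38, GENCODE), both on the forward strand, with 16852 bp between them. The 250 bases before each RefSeq start (GRCm38.p6, forward strand, 5′ to 3′) are chr15:99578806-99579055 for Aqp2 and chr15:99600950-99601199 for Aqp6. Capitals mark matches to 3 motifs that were chosen after the sequence was seen, searched on both strands, with no overlap between matches.
Aqp2: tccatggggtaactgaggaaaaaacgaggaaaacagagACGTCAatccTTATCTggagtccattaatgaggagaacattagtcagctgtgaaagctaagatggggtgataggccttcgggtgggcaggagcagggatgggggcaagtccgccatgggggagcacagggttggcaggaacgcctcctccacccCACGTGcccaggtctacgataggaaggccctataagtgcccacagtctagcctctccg
Aqp6: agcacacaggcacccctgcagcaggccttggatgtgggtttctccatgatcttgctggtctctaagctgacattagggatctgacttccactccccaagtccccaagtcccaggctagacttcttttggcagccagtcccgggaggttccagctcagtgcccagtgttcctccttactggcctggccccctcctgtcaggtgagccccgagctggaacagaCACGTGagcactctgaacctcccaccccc

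In the Aqp2 promoter, ACGTCA, the core letters of a cyclic AMP response element, begins at position -212 from the start. TTATCT, the reverse complement of the GATA element AGATAA, begins at -202, and the E-box CACGTG at -58. The Aqp6 promoter holds CACGTG at -29 and neither of the other motifs. Of 32851 mouse promoter windows of this length, 6.47% hold ACGTCA or its reverse complement TGACGT, 9.99% hold AGATAA or TTATCT and 6.02% hold CACGTG. Among the windows of Aqp1, Aqp3, Aqp7, Aqp11 and Avpr2, the only match was AGATAA at -132 in 1 of the 2 Aqp7 windows. A match describes the letters of the window and does not show that a factor binds there.

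**Figure D1:**
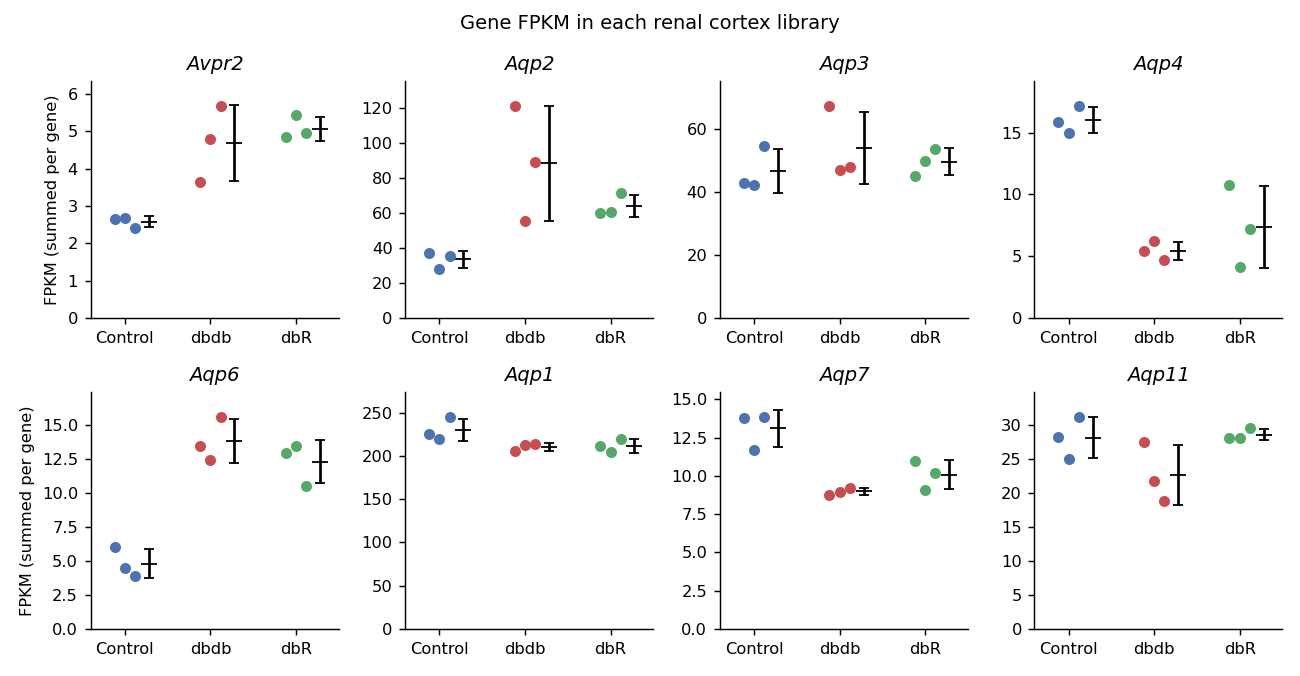
FPKM of each gene (y axis, linear from 0, a separate scale for each gene) in the 3 libraries of each group (points), with the group mean and SD (black bars, n = 3). Avpr2, Aqp2 and Aqp6 lie higher in every dbdb and dbR library than in every control library, Aqp4, Aqp7 and Aqp1 lie lower, and Aqp3 overlaps between all groups.

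In dbdb mice, the apical channel gene Aqp2, the intercalated cell channel gene Aqp6 and the receptor gene Avpr2 were upregulated against control mice, and Aqp4 and Aqp7 were downregulated. These are 5 of the 8 genes, 3 upregulated and 2 downregulated, where 26.4% of all genes tested passed the same threshold, 13.1% upregulated and 13.4% downregulated. Control and dbdb libraries did not overlap for 6 of the 8 genes, against 42.4% of all genes. Aqp1, Aqp3 and Aqp11 did not pass the test. After rosiglitazone none of the 8 genes passed the test against the dbdb group, where 0.743% of all genes tested passed.

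Avpr2 (ENSMUSG00000031390, chrX:73892102-73895502, forward strand) had the lowest level of the 8 genes. Control libraries 1 to 3 gave 2.65, 2.69 and 2.41 FPKM, dbdb libraries 3.64, 4.80 and 5.67, and dbR libraries 4.84, 5.44 and 4.95. The 6 db/db libraries all lay above the 3 control libraries, and the dbdb and dbR libraries overlapped. Mean FPKM was 2.58 ± 0.150 (SD, n = 3) in the control group, 4.70 ± 1.02 in the dbdb group and 5.07 ± 0.319 in the dbR group. The receptor gene was upregulated 1.76-fold in dbdb against control mice (log2 fold change 0.82, SE 0.14, adjusted p from limma = 0.00276) and 1.93-fold in dbR against control mice (0.95, SE 0.14, adjusted p = 0.00133). The dbR and dbdb groups differed by 0.13 on the log2 scale (95% interval -0.19 to 0.45, adjusted p = 0.692), with -0.040 without dbdb replicate 1 and 0.27 without dbdb replicate 3. These values rest on an estimated 125 to 280 fragments per library, the fewest of the 8 genes.

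The Avpr2 values came mainly from 1 of its 3 transcripts, ENSMUST00000033765, which held between 78.1% and 90.8% of the gene sum in a library. This transcript was upregulated in dbdb mice when transcripts were tested (0.92, SE 0.17, adjusted p from limma = 0.0130). ENSMUST00000101470 was between 0.349 and 0.590 FPKM in all libraries and did not pass (0.16, adjusted p = 0.782). Avpr2 overlaps parts of L1cam and Arhgap4, which lie on the opposite strand. L1cam, a cell adhesion molecule gene, went from 2.89 ± 0.163 FPKM (SD, n = 3) in control mice to 5.15 ± 0.225 and 5.69 ± 0.588 in the dbdb and dbR groups, and its log2 fold changes against control were 0.81 (adjusted p = 0.000294) and 0.95 (adjusted p = 0.000143), close to those of Avpr2. Arhgap4 did not pass in either comparison (-0.55, adjusted p = 0.0765, in dbdb vs. control). The libraries kept strand, but whether the counting used it is not given in the sources used here, so a share of reads from the overlapping genes in the Avpr2 values was not tested.

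Aqp2 (ENSMUSG00000023013) encodes the vasopressin-regulated water channel of principal cells and has 1 transcript in the data. Control libraries gave 37.1, 28.0 and 35.6 FPKM, dbdb libraries 121, 55.3 and 89.4, and dbR libraries 60.0, 60.7 and 71.3. Every db/db library lay above every control library, and the dbdb libraries spread widely enough to contain all 3 dbR libraries. Means were 33.6 ± 4.87, 88.6 ± 32.8 and 64.0 ± 6.33 in the control, dbdb and dbR groups (SD, n = 3), so the CV was 37.0% in the dbdb group and 9.89% in the dbR group. Aqp2 was upregulated 2.52-fold in dbdb against control mice (log2 fold change 1.34, SE 0.23, adjusted p from limma = 0.00271) and 1.91-fold in dbR against control mice (0.93, SE 0.23, adjusted p = 0.0166). The second of these did not pass without control replicate 2 (adjusted p = 0.0592) or without dbR replicate 3 (adjusted p = 0.0558), with the log2 fold change at 0.81 and 0.85. Between dbR and dbdb mice the difference was -0.40 (95% interval -0.92 to 0.12, adjusted p = 0.408), and it was -0.14 without dbdb replicate 1 and -0.70 without dbdb replicate 2.

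Aqp3 (ENSMUSG00000028435, chr4:41092722-41098183, reverse strand), a basolateral channel for water and glycerol, did not pass in any comparison. Its FPKM was 42.9, 42.0 and 54.5 in the control, 67.0, 46.8 and 47.8 in the dbdb and 45.1, 49.9 and 53.7 in the dbR libraries. The 3 groups overlapped, with means of 46.5 ± 6.95, 53.9 ± 11.4 and 49.5 ± 4.31 (SD, n = 3). The log2 fold change of Aqp3 was 0.20 in dbdb vs. control (95% interval -0.12 to 0.53, adjusted p from limma = 0.336), with small differences also in dbR vs. dbdb (-0.11, -0.43 to 0.22, adjusted p = 0.756) and in dbR vs. control (0.10, -0.23 to 0.42, adjusted p = 0.669). Without dbdb replicate 1, the value in dbdb vs. control was 0.036, and without control replicate 3 it was 0.32. Leaving out 1 library gave 0.031 to 0.22 in dbR vs. control.

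Aqp4 (ENSMUSG00000024411, on chromosome 18, reverse strand), the other basolateral water channel, went the opposite way. The control libraries held 15.8, 15.0 and 17.1 FPKM, the dbdb libraries 5.41, 6.20 and 4.72, and the dbR libraries 10.7, 4.17 and 7.19. Every db/db library lay below every control library. The dbR group spread from below the lowest to above the highest dbdb library, with a CV of 44.6%, the largest of the 8 genes in any group. Means were 16.0 ± 1.06, 5.44 ± 0.743 and 7.36 ± 3.28 (SD, n = 3). Aqp4 was downregulated 2.92-fold in dbdb mice (log2 fold change -1.54, SE 0.27, adjusted p from limma = 0.00252) and 2.31-fold in dbR mice (-1.21, SE 0.27, adjusted p = 0.00921) against control. The dbR and dbdb groups differed by 0.34 (95% interval -0.25 to 0.93, adjusted p = 0.550), and by 0.018 without dbR replicate 1, the library at 10.7, or 0.69 without dbR replicate 2, the library at 4.17. An antisense gene overlaps Aqp4 and was not analysed here.

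Aqp6 (ENSMUSG00000043144) encodes the vesicle channel of intercalated cells and had the smallest adjusted p of the 8 genes. Control libraries gave 6.01, 4.50 and 3.93 FPKM, dbdb libraries 13.5, 12.5 and 15.6, and dbR libraries 12.9, 13.5 and 10.5. The db/db libraries were all well above the control libraries, and dbdb and dbR overlapped. Group means were 4.81 ± 1.08 (control), 13.8 ± 1.60 (dbdb) and 12.3 ± 1.59 (dbR) FPKM (SD, n = 3). Aqp6 was upregulated 2.87-fold in dbdb mice (log2 fold change 1.52, SE 0.16, adjusted p from limma = 0.000147) and 2.55-fold in dbR mice (1.35, SE 0.16, adjusted p = 0.000308) against control. The difference between dbR and dbdb mice was -0.17 (95% interval -0.52 to 0.18, adjusted p = 0.610), and -0.062 without dbR replicate 3 or -0.083 without dbdb replicate 3.

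Of the 3 proximal tubule genes, Aqp7 was downregulated, while Aqp1 and Aqp11 did not pass. Aqp7 (ENSMUSG00000028427, chr4:41033074-41048139, reverse strand) was 13.8, 11.7 and 13.8 FPKM in the control, 8.76, 8.95 and 9.23 in the dbdb and 11.0, 9.07 and 10.2 in the dbR libraries. All db/db libraries lay below all control libraries, and 2 of the dbR libraries lay above all dbdb libraries. Means were 13.1 ± 1.21, 8.98 ± 0.235 and 10.1 ± 0.960 (SD, n = 3). Aqp7 was downregulated 1.45-fold in dbdb mice (-0.54, SE 0.09, adjusted p from limma = 0.00223) and 1.30-fold in dbR mice (-0.38, SE 0.09, adjusted p = 0.0141) against control, and dbR differed from dbdb by 0.16 (95% interval -0.04 to 0.36, adjusted p = 0.391), or by 0.097 without dbR replicate 1. The call in dbR vs. control was lost without control replicate 3 (adjusted p = 0.0522), without dbR replicate 2 (adjusted p = 0.0503) and with mitochondrial genes left out of the scaling (adjusted p = 0.0754). The main transcript, ENSMUST00000054945, held at least 85.7% of the sum in every library and was itself downregulated in dbdb mice (-0.59, adjusted p = 0.0126), while ENSMUST00000030136 stayed between 0.535 and 1.30 FPKM and did not pass (0.14, adjusted p = 0.835).

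Aqp1 (ENSMUSG00000004655, chr6:55336432-55348555, forward strand) was the most abundant of the 8 genes. FPKM was 225, 220 and 245 in the control, 205, 212 and 214 in the dbdb and 211, 204 and 219 in the dbR libraries. The db/db libraries all lay below the lowest control library, and dbR replicate 3, at 219.1 against 219.5 FPKM, lay just below it. Means were 230 ± 13.2, 210.3 ± 4.56 and 211 ± 7.57 (SD, n = 3), and the differences from control did not pass (-0.13, 95% interval -0.26 to 0.01, adjusted p from limma = 0.154, for dbdb, and -0.12, -0.26 to 0.02, adjusted p = 0.182, for dbR). The dbR and dbdb means differed by 0.01 on the log2 scale (-0.13 to 0.14, adjusted p = 0.974). With mitochondrial genes left out of the scaling, the sign in dbdb vs. control turned (0.032). Without control replicate 3 the differences from control were -0.080 for dbdb and -0.074 for dbR.

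Aqp11 (ENSMUSG00000042797, chr7:97724006-97738289, reverse strand), whose loss causes kidney cysts in mice, was the only one of the 8 genes for which dbR and dbdb libraries did not overlap, where 22.7% of all genes tested did not overlap. FPKM was 28.3, 25.1 and 31.2 in the control, 27.5, 21.9 and 18.8 in the dbdb and 28.2, 28.1 and 29.6 in the dbR libraries. The dbdb libraries reached from within the control range to below it, and the dbR libraries lay within the control range. Mean FPKM was 28.2 ± 3.05, 22.7 ± 4.41 and 28.6 ± 0.855 (SD, n = 3). Neither dbdb vs. control (-0.32, SE 0.13, adjusted p from limma = 0.0852) nor dbR vs. dbdb (0.35, SE 0.13, adjusted p = 0.191) passed, although the unadjusted 95% intervals were -0.60 to -0.04 and 0.07 to 0.63, and dbR differed from control by 0.03 (adjusted p = 0.897). Without dbdb replicate 1, dbdb vs. control passed (-0.47, adjusted p = 0.0110), while the value was -0.20 without dbdb replicate 3 and -0.11 with the highest transcript in place of the sum. The difference between dbR and dbdb was 0.22 without dbdb replicate 3 and 0.17 with the highest transcript. Most of the difference lay in the shorter transcript, ENSMUST00000084986 (896 nt), with means of 9.90, 5.67 and 9.60 FPKM in the control, dbdb and dbR groups, against 18.3, 17.0 and 19.0 for ENSMUST00000206389. Neither transcript passed in any comparison, and their division rests on how Cufflinks assigned the reads.

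**Figure D2:**
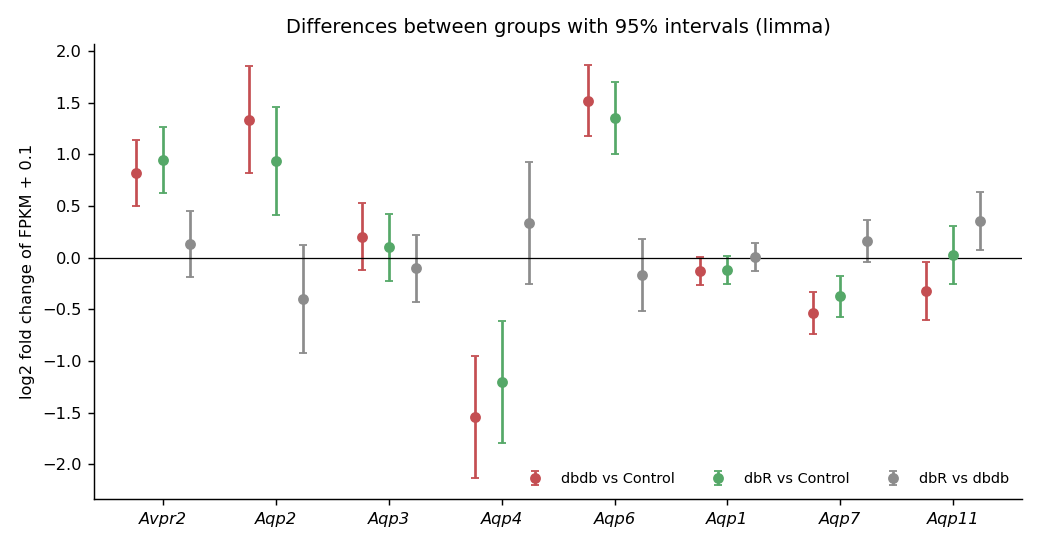
Log2 fold change of FPKM + 0.1 (y axis) with its unadjusted 95% interval from limma for each gene (x axis) in the 3 comparisons. The intervals of dbdb vs. control and dbR vs. control lie away from 0 for Avpr2, Aqp2, Aqp4, Aqp6 and Aqp7. That of Aqp11 also does so in dbdb vs. control (-0.60 to -0.04). In dbR vs. dbdb only the interval of Aqp11 (0.07 to 0.63) does not include 0.

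In dbR vs. control, the same 5 genes passed as in dbdb vs. control, and both comparisons use the same 3 control libraries. Avpr2, Aqp2 and Aqp6 were upregulated and Aqp4 and Aqp7 downregulated, against 24.1% of all genes tested that passed in this comparison (12.3% upregulated and 11.8% downregulated). Libraries of these groups did not overlap for 6 of the 8 genes and for 41.9% of all genes. In dbR vs. dbdb, 0 of the 8 genes passed in limma and 1 had an unadjusted p under 0.05, against 0.743% and 17.5% of all genes. The count of 0 held under every alternative tried, also when any 1 library of the comparison was left out. Across all genes, 1899 were higher and 1941 lower in dbdb vs. control. Scaling each library to an equal sum of nuclear genes shifted the median of all genes to 0.15 and made the split 3489 to 967. The same scaling gave 2404 to 1006 in dbR vs. control (1786 to 1711 as deposited) and 52 to 55 in dbR vs. dbdb (82 to 26 as deposited), and scaling to the 75th percentile gave 2210 to 1336 in dbR vs. control. The directions of the 5 called genes held under each of these scalings. Aqp3 passed with mitochondrial genes left out (0.36, adjusted p from limma = 0.0414).

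The order of the 8 genes by level differed between groups. In control mice it was Aqp1, Aqp3, Aqp2, Aqp11, Aqp4, Aqp7, Aqp6 and Avpr2, and of the neighbors in this order only Aqp2 and Aqp11 overlapped between libraries. In dbdb mice Aqp2 stood above Aqp3 and Aqp6 above Aqp7 and Aqp4, with overlap between Aqp2 and Aqp3 and between Aqp4 and Avpr2. In dbR mice the order was that of the dbdb group, with overlap among Aqp6, Aqp7 and Aqp4 and between Aqp4 and Avpr2, and with Aqp2 above Aqp3 in every library.

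Ratios within a library do not depend on the scaling between libraries. The ratio of Aqp2 to Aqp3 was 0.865, 0.667 and 0.654 in the control, 1.80, 1.18 and 1.87 in the dbdb and 1.33, 1.22 and 1.33 in the dbR libraries. The apical channel transcript was thus below the basolateral Aqp3 in each control library and above it in each db/db library. The ratio of Aqp2 to Aqp4 was between 1.86 and 2.33 in control, between 8.80 and 22.0 in dbdb and between 5.55 and 14.2 in dbR libraries. Aqp2 and Avpr2, the channel and the receptor, kept overlapping ratios in the 3 groups (10.1 to 14.2 in control, 11.3 to 32.4 in dbdb and 11.0 to 14.1 in dbR libraries), and the highest value is that of dbdb replicate 1. Aqp1 stood 16.2 to 18.6 times above Aqp7 in control and 22.9 to 23.4 times above it in dbdb libraries, and the dbR values (19.0 to 22.2) lay between the ranges of those groups. Over 14 such ratios, among them each gene against the mean of its cell type markers, 7 did not overlap between dbdb and control, 2 between dbR and dbdb and 10 between dbR and control. With 3 libraries against 3, the exact two-sided permutation test cannot go below p = 0.10, so none of these ratios could pass. The smallest p adjusted over the 42 tests was 0.221.

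Levels of cell type markers moved with these genes, and their part in the changes was not tested. Of 10 principal cell markers, 8 were upregulated in dbdb against control mice, with a median log2 fold change of 0.78, where 13.1% of all genes were upregulated and their median was 0.00. The other 2, Fxyd4 (-0.18, adjusted p from limma = 0.266) and Elf5 (0.16, adjusted p = 0.663), did not pass. Examples are Scnn1g, a subunit of the epithelial sodium channel (7.53 to 15.4 FPKM, log2 fold change 1.02), Hsd11b2, which inactivates glucocorticoids in aldosterone target cells (25.4 to 51.4 FPKM, 1.02), Kcne1, a potassium channel subunit gene (5.72 to 12.4 FPKM, 1.10), and Scnn1b, another subunit of the sodium channel (9.45 to 16.4 FPKM, 0.79). Summed FPKM of the 10 genes was 128 to 149 in control, 203 to 237 in dbdb and 228 to 236 in dbR libraries. All 10 were upregulated in dbR against control mice (median 0.82), where 12.3% of all genes were upregulated. Of the 10, only Fxyd4 was upregulated in dbR against dbdb mice (0.64, adjusted p from limma = 0.0433), where 0.743% of all genes passed.

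Of 9 intercalated cell markers, all 9 were upregulated in both dbdb (median log2 fold change 0.72) and dbR mice (median 0.86) against control, where 13.1% and 12.3% of all genes were upregulated. Their summed FPKM was 74.9 to 81.9 in control, 123 to 145 in dbdb and 137 to 148 in dbR libraries. Slc4a1, the chloride-bicarbonate exchanger of acid-secreting cells, went from 2.99 to 7.12 FPKM in dbdb mice (1.22), Slc4a9 from 6.64 to 12.7 (0.92), Foxi1, the transcription factor of intercalated cells, from 5.52 to 9.57 (0.78) and Atp6v1b1, a proton pump subunit, from 25.0 to 43.3 (0.78). Atp6v1g3, another pump subunit, was also the 1 gene of the list upregulated in dbR against dbdb mice (0.52, adjusted p from limma = 0.0251), where 0.743% of all genes passed.

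The genes were then set against these markers. The ratio of Aqp6 to the mean of the intercalated cell markers (geometric mean) was 0.885, 0.718 and 0.662 in control, 1.26, 1.21 and 1.33 in dbdb and 1.06, 1.15 and 0.943 in dbR libraries, with no overlap between any of the 3 groups. The ratio differed by 0.75 on the log2 scale between dbdb and control and by -0.27 between dbR and dbdb mice (exact permutation p = 0.10 each, the smallest possible, with an adjusted p of 0.221). The list was of intercalated cells in general, not of the acid-secreting cells alone. Its median log2 fold change was 0.72 in dbdb vs. control, and that of Slc4a1, the exchanger gene of acid-secreting cells, was 1.22. Aqp2 differed from the principal cell markers by 0.67 in dbdb vs. control, with overlap between the groups (exact p = 0.20, adjusted p = 0.365), since dbdb replicate 2 lay within the control range on this ratio. The difference was 0.38 without dbdb replicate 1 and 0.94 without dbdb replicate 2. The ratio of Avpr2 to the principal cell markers was 0.320 to 0.351 in control and 0.309 to 0.423 in dbdb libraries, a difference of 0.15 with overlap, which was between 0.064 (without dbdb replicate 3) and 0.29 (without dbdb replicate 1) when 1 library was left out. Its dbR values (0.364 to 0.389) lay above all control values, a difference of 0.14. For Aqp3 the ratio differed from control by -0.47 in dbdb mice, with overlap, and by -0.71 in dbR mice, without overlap. Aqp4 stood at 1.86 to 2.36 times the marker mean in control and 0.354 to 0.521 times in dbdb libraries, a difference of -2.21. Because AQP4 is also found in the straight proximal tubule, this ratio need not be that within principal cells. A ratio of Aqp4 to proximal tubule markers was not taken.

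**Figure D3:**
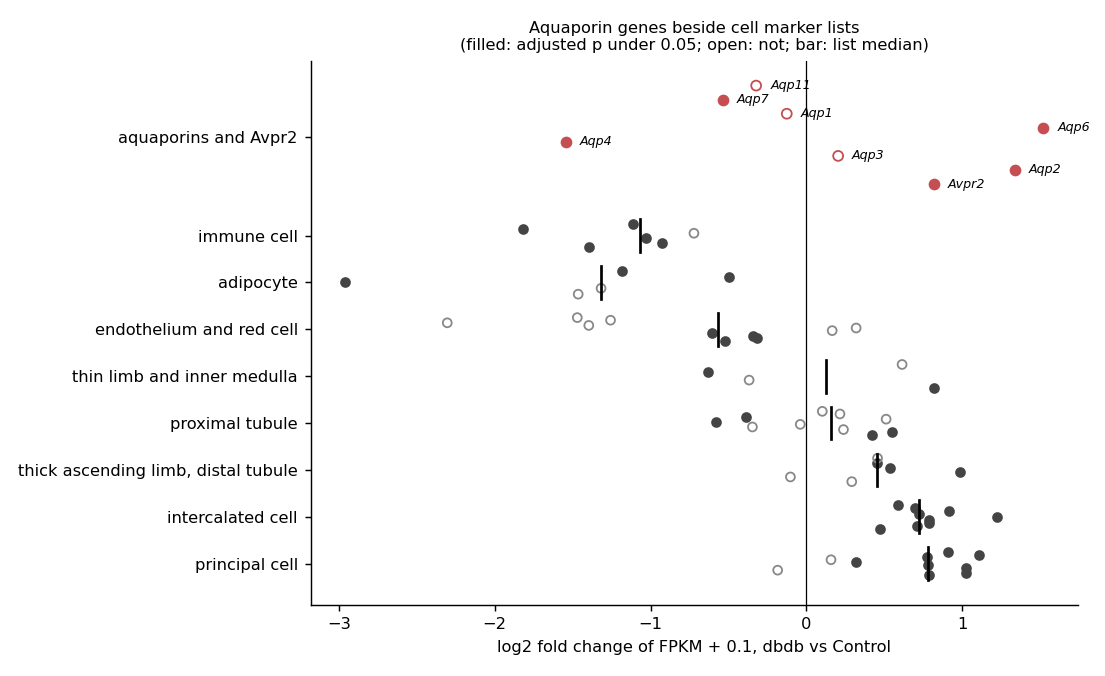
Log2 fold change in dbdb vs. control (x axis) of the 8 genes (red, named) and of the genes of 8 cell marker lists (grey rows, 1 point per gene; vertical positions within a row only separate the points). Filled points passed at an adjusted p under 0.05 and bars mark the list medians, which lie at 0.78 for principal cell, 0.72 for intercalated cell, -1.07 for immune cell and -1.32 for adipocyte markers.

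Of 10 proximal tubule markers, 2 were upregulated in dbdb mice, the cotransporter genes Slc5a12 (0.55) and Slc5a2 (0.42), and 2 were downregulated, Slc22a6 (-0.58) and Slc3a1 (-0.39), with a median of 0.16, where 13.1% and 13.4% of all genes passed in these directions. The count of upregulated markers was 1 without control replicate 3, dbdb replicate 1 or dbdb replicate 2, 5 after quantile normalization and 6 with mitochondrial genes left out of the scaling. The ratio of Aqp7 to this list was lower in every dbdb library (0.0397 to 0.0501) than in every control library (0.0584 to 0.0748), a difference of -0.60. For Aqp1 (-0.19) and Aqp11 (-0.39) the ratios overlapped between the groups. Because Aqp4 and Aqp7 are also found in the straight proximal tubule, 4 genes of that segment were looked up after the values were seen. They were not taken from a fixed list and are a selection of strongly changed genes. Slc5a1, a glucose transporter of the same segment that does belong to the proximal tubule list, went another way, with means of 19.4, 20.8 and 26.3 FPKM in the control, dbdb and dbR groups, and did not pass in dbdb vs. control (0.10, adjusted p from limma = 0.355) but was upregulated in dbR vs. control (0.44, adjusted p = 0.00283). Slc7a13, an amino acid transporter of the straight segment, had means of 471 ± 86.7, 59.2 ± 3.35 and 124 ± 28.6 FPKM in the control, dbdb and dbR groups (SD, n = 3). In dbdb mice it was downregulated, with a log2 fold change of -2.98 (adjusted p from limma = 7.55e-06), and it was upregulated in dbR against dbdb mice (1.04, adjusted p = 0.0282). The organic anion transporter gene Slc22a7 was 31.4, 0.434 and 0.593 FPKM in the control, dbdb and dbR groups, Cyp7b1, an oxysterol hydroxylase gene, was 61.0, 3.25 and 2.91, and Atp11a was 269, 66.1 and 56.5. Slc22a7, Cyp7b1 and Atp11a were downregulated in both db/db groups, a direction that the choice of these genes fixed. Whether the levels of Aqp4 and Aqp7 follow this segment was not tested.

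Markers of other cells were counted in the same way. Of 6 markers of the thick ascending limb and distal convoluted tubule, 3 were upregulated in dbdb mice (median 0.46), against 13.1% of all genes, led by the thiazide-sensitive cotransporter gene Slc12a3 (0.98, adjusted p from limma = 2.61e-05), while Slc12a1 of the thick limb did not pass (0.29, adjusted p = 0.147). Among the thin limb and inner medulla genes, Cryab, a small heat shock protein gene, was downregulated (-0.63). Of 10 endothelial and red cell genes, 4 were downregulated in dbdb mice, the endothelial genes Emcn (-0.61), Pecam1 (-0.52), Kdr (-0.34) and Cdh5 (-0.32), against 13.4% of all genes. The other endothelial genes, Plvap (0.17, adjusted p from limma = 0.169) and Slc14a1 (0.32, adjusted p = 0.639), did not pass, and the median was -0.33 over the 6 endothelial genes and -0.56 over all 10. In dbR mice Emcn and Kdr were upregulated against dbdb mice (0.66 and 0.52), where 0.743% of all genes passed. Summed FPKM of the 6 endothelial genes was 128 to 144 in control, 105 to 118 in dbdb and 141 to 160 in dbR libraries. The 4 haemoglobin genes, of which none passed, summed to 103, 7.48 and 23.3 in the control libraries, 6.38 to 17.1 in dbdb and 9.84 to 17.9 in dbR libraries. The count of 4 was 2 with mitochondrial genes left out of the scaling. Of 5 tested adipocyte genes, 3 were downregulated in dbdb mice, against 13.4% of all genes, namely Cfd (-2.96), Car3 (-1.19) and Fabp4 (-0.50), and 1 of the 5 without control replicate 3. Their list summed to 65.7 to 76.6 FPKM in control, 33.6 to 49.7 in dbdb and 54.9 to 58.0 in dbR libraries. This sum came mostly from Fabp4 and Car3, with means of 36.3 and 31.4 FPKM in the control group. The defining adipocyte gene Adipoq was at 0.121 to 0.265 FPKM in the control libraries, at 0 in every dbdb library and at 0.515, 0 and 0.0723 in the dbR libraries, and the adipocyte genes Plin1, Lep and Retn were below the filter. Fabp4 was upregulated in dbR against dbdb mice (0.82, adjusted p = 0.0450). Aqp7 is also known from adipocytes, and a part of adipocyte RNA in its values was not tested. Of 6 immune cell genes, 5 were downregulated in dbdb mice (median -1.07), against 13.4% of all genes, among them Ptprc (-1.39), with summed FPKM of 18.4 to 26.2 in control, 8.73 to 10.8 in dbdb and 12.4 to 14.4 in dbR libraries.

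The chain from receptor to channel was examined with gene lists of the pathway. Of 16 genes of cyclic AMP and protein kinase A signaling, 7 were upregulated and none downregulated in dbdb mice, with a median of 0.11, where 13.1% of all genes tested were upregulated. They were Adcy6, the adenylyl cyclase of collecting duct cells (10.9 to 13.9 FPKM, log2 fold change 0.35, adjusted p from limma = 0.00863), Prkaca, the catalytic subunit of protein kinase A (0.23), its regulatory subunits Prkar2a (0.44) and Prkar1b (0.72), the anchoring protein gene Akap7 (17.0 to 26.5 FPKM, 0.64), and the cyclic AMP phosphodiesterase genes Pde4d (16.0 to 24.2 FPKM, 0.59) and Pde4b (0.38). The upregulated genes thus included both a producer and degraders of cyclic AMP. Gnas, the coupling G protein gene, did not pass (-0.01, adjusted p = 0.902), nor did Creb1 (-0.23, adjusted p = 0.276). Without control replicate 2 or control replicate 3, 4 of the 16 passed in dbdb vs. control. In dbR vs. control, 4 were upregulated, or 2 without control replicate 3, against 12.3% of all genes. In dbR vs. dbdb none of the 16 passed, against 0.743% of all genes.

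Of 12 transcription factors of the collecting duct and of Aqp2, 11 were tested and 7 were upregulated in dbdb mice (median 0.50), against 13.1% of all genes. These were Tfcp2l1, which shapes principal and intercalated cell identity (46.0 to 81.1 FPKM, 0.82), Gata3 (3.06 to 5.28 FPKM, 0.78), Grhl2 (0.76), Ehf (0.74), Elf3 (0.56), Klf4 (0.50) and Nr3c2, the mineralocorticoid receptor gene (0.40). Gata3 and Elf5 also belong to the principal cell list. Gata2 did not pass (0.18, adjusted p from limma = 0.557). Of these genes Elf3 alone passed in dbR vs. dbdb, where 0.743% of all genes passed. It was downregulated (-0.57, adjusted p = 0.0389), with means of 3.70, 5.51 and 3.68 FPKM in the control, dbdb and dbR groups. Against control, 6 of the 11 were upregulated in dbR mice, where 12.3% of all genes were upregulated. Foxa1 was below the filter.

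Of 14 genes of Aqp2 vesicle traffic, 3 were upregulated and 2 downregulated in dbdb mice (median -0.02), a share near the 26.4% of all genes that passed (13.1% upregulated and 13.4% downregulated). The vesicle SNARE gene Vamp2 (19.5 to 29.0 FPKM, 0.57), Mal, whose product binds AQP2 at the apical membrane (37.7 to 56.5 FPKM, 0.58), and Ezr (0.34) were upregulated, and Vamp3 (-0.20) and Snap23 (-0.19) were downregulated. Of 7 tested tonicity-responsive genes and urea transporters, Nfat5, the factor that drives many of them, did not pass (0.00, adjusted p from limma = 0.976). Akr1b3, the aldose reductase that makes the osmolyte sorbitol, was downregulated (47.6 to 20.0 FPKM, log2 fold change -1.23, adjusted p = 0.000778), and Slc6a6, the taurine transporter gene, was upregulated (76.2 to 101 FPKM, 0.40, adjusted p = 0.0184). These 2 of 7 compare with 26.4% of all genes. The call of Slc6a6 was lost without control replicate 1, dbdb replicate 1 or dbdb replicate 2. None of the vesicle or tonicity genes passed in dbR vs. dbdb, against 0.743% of all genes.

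Among the receptor genes closest to Avpr2, Avpr1a, the V1a receptor gene, was also upregulated, from 1.52 ± 0.186 FPKM in control to 2.47 ± 0.332 in dbdb mice (0.66, adjusted p from limma = 0.00470) and 2.97 ± 0.130 in dbR mice (0.93 against control, adjusted p = 0.000845). Avpr1b was at 0 in all libraries and Oxtr was at most 0.0760. Of 5 other aquaporin genes (Mip, Aqp5, Aqp8, Aqp9 and Aqp12), only Aqp8 passed the filter, with means of 0.459, 0.272 and 0.194 FPKM in the control, dbdb and dbR groups. It did not pass in dbdb vs. control (-0.56, adjusted p = 0.197), and its call in dbR vs. control (-0.93, adjusted p = 0.0477) held under 4 of 13 alternatives (1 of the others, the filter at a mean of 1 FPKM, left Aqp8 untested) and was also lost without control replicate 2 or 3 or dbR replicate 2 or 3.

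Of Racgap1, Asic1, Smarcd1 and Gm17349, the tested neighbors of Aqp2 and Aqp6 on chromosome 15, only Smarcd1 passed in dbdb vs. control. Of all genes tested, 26.4% passed in this comparison. Aqp5, which lies between the pair, was at most 0.141 FPKM in any library, and Faim2, before Aqp2, was below the filter. Racgap1, the next gene after Aqp6, did not pass in dbdb vs. control (-0.02, adjusted p from limma = 0.965), nor did Asic1 (-0.05, adjusted p = 0.862). Smarcd1, a chromatin remodeling subunit gene farther along, was upregulated from 5.31 to 7.37 FPKM (0.47, adjusted p = 0.00328) and overlaps Gm17349, which did not pass (0.28, adjusted p = 0.668). Aqp7 and Aqp3 also lie next to each other, on chromosome 4 with 44582 bp between them, and of that pair only Aqp7 passed. None of the 6 tested neighbors Bag1, Chmp5, Nfx1, Nol6, Ube2r2 and Ubap2 passed in dbdb vs. control, against 26.4% of all genes.

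**Figure D4:**
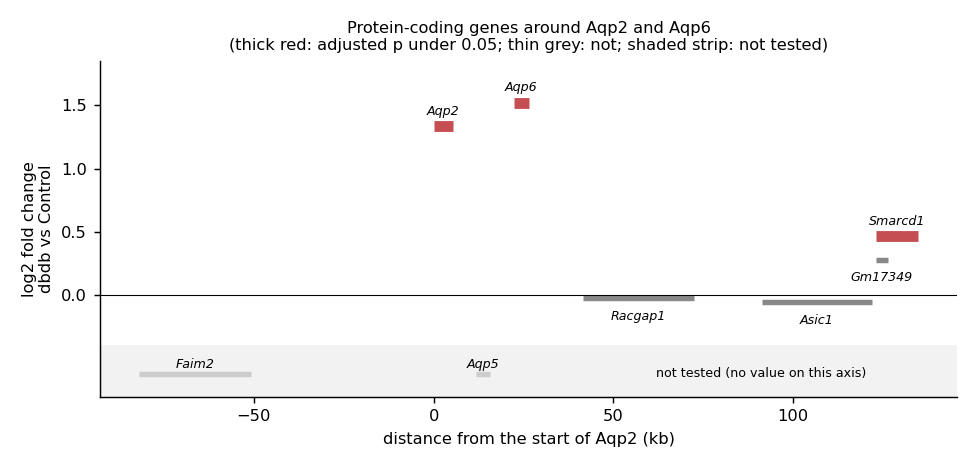
Log2 fold change in dbdb vs. control (y axis) of protein-coding genes against their distance from the start of Aqp2 (x axis, kb), each bar spanning a gene, with thick red bars for an adjusted p under 0.05. Aqp2 (1.34) and Aqp6 (1.52) stand above Racgap1 (-0.02), Asic1 (-0.05) and Smarcd1 (0.47), and genes in the shaded strip were not tested.

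Over the 9 libraries, the log2 values of Aqp4 and Aqp7 had a Pearson r of 0.94, Aqp6 and Avpr2 of 0.91, Aqp2 and Aqp6 of 0.86 and Aqp4 and Aqp6 of -0.89. Aqp3 followed none of the others closely, with its highest r at 0.67 with Aqp2. These values describe 9 libraries that share the difference between groups. Among 11615 genes with a mean of at least 1 FPKM, the pattern of Spink8 was most like that of Aqp2 (r = 0.99), with 11.4, 23.9 and 18.6 FPKM in the control, dbdb and dbR groups. Next came Arrdc4, Pbx3, Myzap and Car15, with r from 0.970 to 0.965, and Car15, a membrane carbonic anhydrase gene, went from 31.3 to 55.9 and 50.8 FPKM. The genes most like Aqp4 were Inpp5f, 3110001I22Rik, Kcnma1, Cdk6 and Zfp524 (r from 0.973 to 0.962), of which the potassium channel gene Kcnma1 differed most from control in dbdb mice (-0.71). Those most like Aqp7 were Slc22a13, Napsa, Vwa2, Csf1r and Ivd (r from 0.974 to 0.962). Napsa, an aspartic protease gene of the proximal tubule, went from 844 to 383 FPKM in dbdb mice (-1.13), and Csf1r, a receptor gene of macrophages, from 11.5 to 4.39 FPKM (-1.37).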

How the data were processed

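Total RNA of the renal cortex was depleted of ribosomal RNA and made into directional libraries, which were sequenced from both ends. The authors aligned the reads to GRCm38.p2 with TopHat2 (2.0.9), assembled transcripts with Scripture Beta2 and Cufflinks (2.1.1), and deposited a table of FPKM values per transcript and library. Counts were not used, and the study's own Cufflinks test, which needs reads, was replaced by limma. FPKM of mRNA transcripts was summed per gene, genes with a mean of at least 0.1 FPKM were kept, and log2(FPKM + 0.1) was fitted with limma 3.58.1 (R 4.3.3) with a variance trend, 3 group means and no block. All limma tests are two-sided. Ratios used an exact two-sided permutation test, and correlations are descriptions. Depth was estimated from the steps between low FPKM values with an assumed fragment length of 200 nt. Transcript lengths and coordinates came from GENCODE vM21, and promoters from RefSeq, where all genes except Aqp4 were looked up. Groups came from the sample labels. Nothing ties a replicate number to a litter or day. The limma p-values rest on the spread between mice within groups, pooled over the 3 groups and moderated across genes. The spread of the group outside a comparison thus also enters its p-value. For Aqp4 in dbdb vs. control, the SE was 0.27 in this model and 0.11 with only the 6 libraries of the comparison.

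The 8 genes and the gene lists were chosen with earlier results of these data known. The genes named are the 8, up to 4 called genes and the defining gene of each list, the 5 genes most like Aqp2, Aqp4 and Aqp7, neighbors of the aquaporin pairs, and Lepr. The remaining genes called in the cyclic AMP, transcription factor and vesicle traffic lists, Creb1, Slc5a1, Plvap, Slc14a1, the haemoglobin genes, L1cam, Arhgap4 and the 4 genes of the straight proximal tubule were named after their values were seen. The fit was tested on simulated data. Alternatives were a pseudocount of 1 or 0.01, no filter or a mean of at least 1 FPKM, 4 other scalings, fewer libraries, a replicate block, no variance trend, the highest transcript per gene, lncRNA genes added, and leaving out each library in turn. Calculations outside R used python 3.11.15, pandas 2.3.3 and scipy 1.17.1.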

Additional observations from a re-analysis of the deposited data

How the results depend on the processing

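The number of the 8 genes called stayed between 5 and 6 in dbdb vs. control, at 0 in dbR vs. dbdb and between 4 and 5 in dbR vs. control under every alternative, also when any 1 library of the comparison was left out. The number of all genes called in dbR vs. dbdb was less stable, at 108 and between 18 and 234 under other settings, and between 2 and 141 when 1 library was left out. The direction of the 5 called genes held in every alternative of dbdb vs. control and dbR vs. control. Values near 0 turned sign. Aqp1 turned to 0.032 in dbdb vs. control with mitochondrial genes left out, and in dbR vs. dbdb to -0.057 with that scaling and to -0.058 with quantile normalization, with a range of -0.020 to 0.031 when 1 library was left out. Leaving out 1 library gave -0.20 to 0.062 for Aqp3 and -0.040 to 0.27 for Avpr2 in dbR vs. dbdb, and -0.052 to 0.10 for Aqp11 in dbR vs. control. Among the log2 ratios within a library, a pseudocount of 1 turned Aqp2 to Avpr2 in dbR vs. control to 0.15, and Avpr2 to principal cell markers in dbR vs. dbdb to 0.016. Leaving out 1 library gave -0.17 to 0.082 and -0.15 to 0.078 for these, -0.047 to 0.46 for Aqp6 to Aqp2 in dbdb vs. control and also in dbR vs. dbdb, -0.13 to 0.57 for Aqp4 to principal cell markers and -0.13 to 0.026 for Aqp1 to proximal tubule markers in dbR vs. dbdb, and -0.21 to 0.0085 for Aqp11 to proximal tubule markers in dbR vs. control. The cause was not tested in any of these cases.

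Replicate numbers did not pair the libraries, since the correlation of the deviations of same-numbered libraries from their group means was between -0.19 and 0.06. With the replicate block, 5, 0 and 5 of the 8 genes were called in dbdb vs. control, dbR vs. dbdb and dbR vs. control, and 3345, 23 and 3030 of all genes. The ratios have no blocked fit, since they come from a permutation test. The 3 libraries of a group and an estimated 125 fragments for Avpr2 in the lowest library limit what can be seen, and the widest 95% intervals in dbR vs. dbdb were those of Aqp4 (-0.25 to 0.93) and Aqp2 (-0.92 to 0.12).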
